A study of Homo sapiens with 43 samples.

Results

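The 7 genes described here, UBD, WARS1, HAPLN3, HGF, PDE4B, BPGM and ZNF697, were picked from 58780 Ensembl genes for large responses to interferon gamma (IFNg), several of them smaller under BRM014. BRM014 blocks the ATPase subunits of the chromatin remodelling complex BAF, SMARCA4 and SMARCA2. Because IFNg responses with and without the inhibitor chose the genes, those responses are given below as a description, with no test and no count of calls. Tests are given for BRM014 without a stimulus, for the other stimuli and for a second cell line. In GM12878 these tests share vehicle libraries with the IFNg responses, so they are not independent of how the genes were chosen.

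RNA was measured in 43 libraries by poly(A) RNA sequencing. GM12878, a lymphoblastoid B-cell line transformed by Epstein-Barr virus, gave 39 of them in 20 groups, and the other 4 came from HepG2, a line derived from a hepatocellular carcinoma. In the pretreatment experiment (24 libraries, 12 groups of 2), every GM12878 culture received 10 µM BRM014 or DMSO for 30 min. IFNg (100 ng/mL), dexamethasone (Dex, 500 nM) or vehicle then followed for 1 h or 6 h. In the stimulus panel (15 libraries), GM12878 cells without pretreatment received IFNg (100 ng/mL), Dex (500 nM), interleukin 2 (IL2, 50 U/mL), tumor necrosis factor alpha (TNF, 25 ng/mL) or lipopolysaccharide (LPS, 10 ng/mL) for 6 h, in 2 libraries each, or doxorubicin (Dox, 500 nM) in 1 library. The panel's 4 vehicle libraries were 2 labelled DMSO and 2 labelled PBS, and their mean was the control because the labels tie neither to a stimulus. HepG2 cells received 10 µM BRM014 or DMSO for 24 h, with no cytokine, in 2 libraries each. Nothing in the labels makes replicates separate cultures, so p-values measure only the spread between these libraries, which may be technical.

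Libraries held 12.9 M to 22.9 M counts in GM12878 and 3.06 M to 19.91 M counts in HepG2, where the shallowest was BRM014 replicate 2. All 8 B-cell markers were found in GM12878, with a summed level of 9982 to 13362 CPM (counts scaled by library size), and 6 hepatocyte markers summed to 15273 to 34439 CPM in HepG2. The inhibitor's targets were expressed in every GM12878 library, SMARCA4 at 181 to 279 CPM and SMARCA2 at 496 to 1283 CPM. Both chains of the IFNg receptor were also expressed, IFNGR1 at 71.8 to 162 CPM and IFNGR2 at 53.6 to 108 CPM.

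IFNg binds its receptor at the cell surface and activates the JAK kinases attached to it. GAS is a DNA element found near many genes that respond to IFNg. IRF1, a transcription factor induced by IFNg, binds interferon-stimulated response elements (ISREs) and carries a later wave of transcription. BAF complexes move nucleosomes and help to keep such regulatory DNA accessible. The 7 genes have unlike products. UBD encodes FAT10, a ubiquitin-like modifier that sends proteins to the proteasome, and WARS1 encodes the cytosolic tryptophanyl-tRNA synthetase. HAPLN3 encodes a link protein of hyaluronan matrix, and HGF encodes hepatocyte growth factor, the ligand of the MET receptor. PDE4B encodes a phosphodiesterase that breaks down cAMP, BPGM encodes the enzyme that makes 2,3-bisphosphoglycerate from a glycolytic intermediate, and ZNF697 encodes a zinc finger protein.

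In hg38 with GENCODE annotation, UBD lies on chromosome 6 (29555515 to 29559732, minus strand), WARS1 on chromosome 14 (100333790 to 100376805, minus strand) and HAPLN3 on chromosome 15 (88877294 to 88895597, minus strand). HGF lies on chromosome 7 (81699010 to 81770438, minus strand), as does BPGM (134646811 to 134679816, plus strand). PDE4B (65792514 to 66374579, plus strand) and ZNF697 (119619377 to 119648266, minus strand) lie on chromosome 1. UBD overlaps GABBR1 on the same strand over 4104 bases, and WARS1 overlaps WDR25 on the opposite strand over 388 bases. GABBR1 averaged 6.57 CPM and WDR25 8.54 CPM in GM12878. In panel IFNg cells GABBR1 differed by 0.17 and WDR25 by 1.00 on the log2 scale from vehicle, beside 3.48 for UBD and 2.39 for WARS1.

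Start-site windows of all 7 genes, 250 bases before to 50 after each annotated start, were found in RefSeq (GRCh38.p14), 13 in all. They were searched for GAS (TTCNNNGAA, which reads the same on both strands) and for a strict ISRE (GAAA, any 2 bases, GAAA, on either strand). Across 35116 windows of that length, 7.66% held the GAS letters and 3.57% the ISRE letters. Among the 7 genes, HAPLN3, the second of 2 WARS1 windows and the fifth of 6 PDE4B windows held GAS, and that WARS1 window also held ISRE. No match was found in the windows of UBD, HGF, BPGM or ZNF697. The 3 windows with matches are shown, with UBD, whose 6 h log2 response differed most between the pretreatments, beside them; capitals mark the matches. Each run is 5′ to 3′ on the gene's strand and ends at the base before the start, except HAPLN3, which goes 30 bases past it because its GAS lies there. The regions are chr14:100375348-100375597 (WARS1, minus strand), chr15:88895515-88895794 (HAPLN3, minus strand), chr1:66331858-66332107 (PDE4B, plus strand) and chr6:29559733-29559982 (UBD, minus strand).
WARS1: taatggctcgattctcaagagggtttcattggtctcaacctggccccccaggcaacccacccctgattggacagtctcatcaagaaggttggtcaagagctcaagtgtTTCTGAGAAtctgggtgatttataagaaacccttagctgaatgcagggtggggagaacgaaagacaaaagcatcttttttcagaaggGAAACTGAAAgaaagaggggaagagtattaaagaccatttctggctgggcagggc
HAPLN3: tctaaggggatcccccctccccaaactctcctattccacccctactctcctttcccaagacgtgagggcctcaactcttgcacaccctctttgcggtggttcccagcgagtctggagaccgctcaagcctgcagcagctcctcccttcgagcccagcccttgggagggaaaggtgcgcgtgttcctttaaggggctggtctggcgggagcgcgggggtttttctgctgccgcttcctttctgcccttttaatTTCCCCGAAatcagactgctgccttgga
PDE4B: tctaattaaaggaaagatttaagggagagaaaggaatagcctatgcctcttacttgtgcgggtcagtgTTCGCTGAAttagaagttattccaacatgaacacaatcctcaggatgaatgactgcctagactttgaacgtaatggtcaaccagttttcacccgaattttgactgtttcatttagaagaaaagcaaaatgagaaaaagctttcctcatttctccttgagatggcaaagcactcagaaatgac
UBD: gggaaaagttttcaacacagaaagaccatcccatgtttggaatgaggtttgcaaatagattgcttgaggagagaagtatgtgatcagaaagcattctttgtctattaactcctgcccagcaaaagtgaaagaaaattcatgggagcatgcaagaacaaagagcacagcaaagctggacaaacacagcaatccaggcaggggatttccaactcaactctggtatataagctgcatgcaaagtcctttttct
A match is a description of letters, and gene counts do not separate the alternative starts of WARS1 and PDE4B.

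Without pretreatment, 6 h of IFNg gave the highest panel levels of all 7 genes. WARS1 stood at 2351 and 2383 CPM in IFNg cells, against 436 to 469 CPM in the 4 vehicle libraries. UBD stood at 227 and 219 CPM in IFNg cells, against 16.6 to 21.7 CPM with vehicle. HAPLN3 had the steepest change, 93.8 and 97.3 CPM in IFNg cells against 1.54 to 2.39 CPM with vehicle, a log2 fold change of 5.70 ± 0.12 (SE) that ranked 5 of 15775 genes. Per length, in the authors' TPM, the IFNg level was highest for WARS1 (1926 ± 57.9, SD, n = 2), followed by UBD (301 ± 4.36), HAPLN3 (65.2 ± 2.64), BPGM (39.8 ± 3.84) and PDE4B (12.1 ± 1.25), and lowest for HGF (5.17 ± 1.52) and ZNF697 (3.71 ± 0.233), whose difference is within the SD of HGF. For HGF the levels were 9.86 and 13.2 CPM in IFNg cells, against 0.776 to 2.09 CPM with vehicle. BPGM had 56.4 and 48.4 CPM in IFNg cells and 18.5 to 22.0 CPM with vehicle, and ZNF697 had 15.9 and 14.3 CPM in IFNg cells and 4.66 to 5.67 CPM with vehicle. PDE4B moved least, with 33.8 and 35.4 CPM in IFNg cells against 21.9 to 24.7 CPM with vehicle. The IFNg and vehicle libraries did not overlap for any of the 7, from which nothing is read because this contrast chose them. The share of all genes without such overlap was not counted. By another measure, the edgeR test, 7.11% of all genes were called higher. In these bulk libraries, more RNA per cell and more responding cells cannot be told apart.

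**Figure D1:**
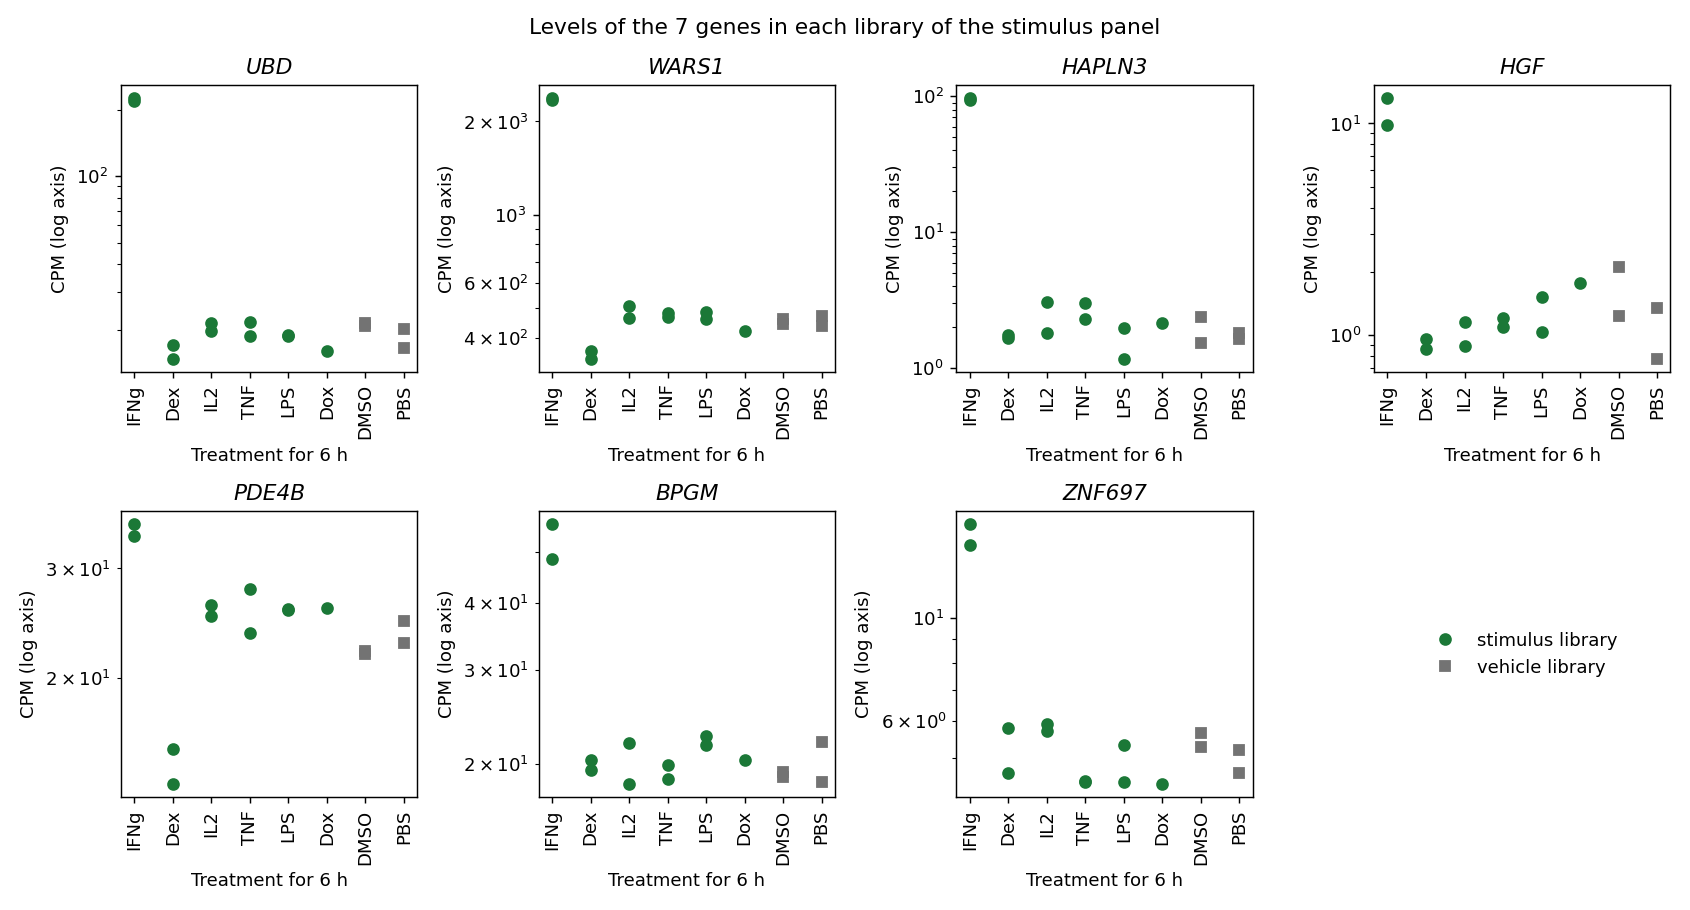
CPM of the 7 genes (log axis) in each panel library after 6 h of treatment, stimuli as circles and vehicles (DMSO, PBS) as squares. The IFNg libraries are the highest for every gene, for example 227 and 219 CPM of UBD against 16.6 to 21.7 CPM with vehicle, and Dex libraries are the lowest for PDE4B.

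The response had a different time course from gene to gene in cells pretreated with DMSO. PDE4B was highest at 1 h, with 45.6 and 48.4 CPM in IFNg cells against 20.7 and 19.1 CPM with vehicle. At 6 h its IFNg libraries held 22.9 and 29.0 CPM, against 22.1 and 22.5 CPM with vehicle, so its log2 fold change was 1.24 ± 0.09 at 1 h and 0.23 ± 0.10 at 6 h. ZNF697 had already responded at 1 h, with 20.9 and 21.0 CPM in IFNg cells and 4.55 and 6.23 CPM with vehicle. Its log2 fold change was 1.95 ± 0.15 at 1 h and 1.72 ± 0.16 at 6 h. HAPLN3, UBD and BPGM were higher at 1 h and higher still at 6 h, with log2 fold changes of 2.37, 0.84 and 0.53 at 1 h and of 5.37, 3.34 and 1.23 at 6 h. WARS1 and HGF differed little from vehicle at 1 h (0.06 ± 0.10 and 0.04 ± 0.42) and stood at 2.20 ± 0.10 and 2.60 ± 0.35 at 6 h. In vehicle cells none of the 7 was called between 6 h and 1 h (lowest adjusted p = 0.506, edgeR's quasi-likelihood test; none had an unadjusted p under 0.05), where 1.43% of all genes were.

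A single library touches the 6 h values: IFNg replicate 1 of the DMSO arm was lower than replicate 2 for 7 of 7 genes, with a median ratio of 0.728. It was also lower for 31 of 41 other IFNg targets (median ratio 0.906), while the median ratio over all genes tested was 0.99. Without it the median 6 h response of the 7 under DMSO was 2.41 in place of 2.20, and the median 6 h difference between the arms was -1.58 in place of -1.30; without replicate 2 these were 1.96 and -1.05.

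Under BRM014, IFNg for 1 h left the early genes close to their vehicle levels. PDE4B held 13.2 and 12.2 CPM in BRM014-treated IFNg cells, against 12.4 and 12.3 CPM in BRM014-treated vehicle cells, a log2 fold change of 0.04 ± 0.12 in place of 1.24 with DMSO. ZNF697 held 6.92 and 7.24 CPM with IFNg and 5.24 and 6.19 CPM with vehicle under BRM014, which is 0.31 ± 0.17 in place of 1.95. HAPLN3 had 2.83 and 1.85 CPM with IFNg, against 2.24 and 1.15 CPM with vehicle, so its libraries overlapped. UBD likewise overlapped, with 19.0 and 18.0 CPM in IFNg cells and 16.2 and 19.3 CPM in vehicle cells. The difference between the arms' log2 responses, BRM014 minus DMSO, was -1.20 ± 0.15 for PDE4B, -1.64 ± 0.23 for ZNF697, -1.90 ± 0.57 for HAPLN3, -0.78 ± 0.23 for UBD and -0.43 ± 0.17 for BPGM. On the linear scale, the 5 genes with a 1 h log2 response of at least 0.5 kept a median of 8.77% of their rise in CPM. That median ran from 2.21% without BRM014-arm IFNg replicate 1 to 11.8% without BRM014-arm vehicle replicate 2. The single values carried wide errors: 1.27 ± 1.86% (SE) for PDE4B, 4.67 ± 10.4% for UBD, 8.77 ± 3.28% for ZNF697, 8.97 ± 10.1% for HAPLN3 and 13.8 ± 25.7% for BPGM, so no order among them is read.

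By 6 h, ZNF697 and BPGM had no visible response left under BRM014, UBD, WARS1, HGF and HAPLN3 had a smaller one than under DMSO, and PDE4B had a small one in both arms. ZNF697 had 6.15 and 6.45 CPM in BRM014-treated IFNg cells, against 6.35 and 6.86 CPM in BRM014-treated vehicle cells, while the DMSO arm held 16.7 and 17.3 CPM with IFNg and 4.21 and 5.92 CPM with vehicle. BPGM had 28.0 and 24.6 CPM with IFNg and 25.3 and 23.8 CPM with vehicle under BRM014, against 43.9 and 54.8 CPM with IFNg and 20.2 and 22.1 CPM with vehicle under DMSO. These libraries overlapped under BRM014 and were apart under DMSO.

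UBD lost the most on the log2 scale. It stood at 13.9 and 14.7 CPM in BRM014-treated IFNg cells and 7.91 and 7.76 CPM in BRM014-treated vehicle cells. In the DMSO arm it stood at 141 and 198 CPM with IFNg and 15.1 and 18.1 CPM with vehicle. The IFNg level under BRM014 was thus below that of unstimulated DMSO cells, and the response was 0.86 ± 0.21 in place of 3.34 ± 0.15.

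WARS1 reached 479 and 502 CPM with IFNg under BRM014, against 254 and 271 CPM with vehicle, and 1852 and 2546 CPM with IFNg against 497 and 459 CPM with vehicle under DMSO. Here too the stimulated level under BRM014 lay near the unstimulated level of the DMSO arm. HGF held 1.52 and 1.69 CPM in IFNg cells and 1.04 and 0.567 CPM in vehicle cells under BRM014, and 5.45 and 7.96 CPM in IFNg cells and 0.801 and 1.34 CPM in vehicle cells under DMSO. Its response under BRM014, 1.01 ± 0.42, ran from 0.63 to 1.49 when a library was left out.

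HAPLN3 gives a different picture on each scale. It had 12.1 and 14.1 CPM with IFNg and 0.778 and 0.737 CPM with vehicle under BRM014, and 56.3 and 90.7 CPM with IFNg and 1.80 and 1.75 CPM with vehicle under DMSO. Its log2 response was still 4.10 ± 0.38 under BRM014, rank 14 of 15183 genes, in place of 5.37 ± 0.28 under DMSO. Yet the rise in CPM was 17.2 ± 4.35% (SE) of that with DMSO.

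The 6 h difference between the arms' log2 responses, BRM014 minus DMSO, was -2.48 ± 0.26 for UBD, -1.79 ± 0.23 for ZNF697, -1.59 ± 0.57 for HGF, -1.30 ± 0.14 for WARS1, -1.28 ± 0.63 for HAPLN3 and -1.12 ± 0.16 for BPGM. It was 0.01 ± 0.15 for PDE4B, whose response was smaller under BRM014 at 1 h and not at 6 h. For WARS1 and HGF the difference at 1 h was -0.11 ± 0.14 and 0.49 ± 0.59, so only their 6 h response was smaller by more than the SE. These contrasts helped to choose the genes, so no verdict on the set is drawn from them. The 6 genes with a 6 h log2 response of at least 0.5 kept a median of 9.77% of their rise in CPM. Their shares ran from -2.58 ± 2.47% (SE) for ZNF697 and 4.20 ± 0.823% for UBD to 17.2 ± 4.35% for HAPLN3. Leaving out a library gave a median of 7.14 to 12.5%.

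**Figure D2:**
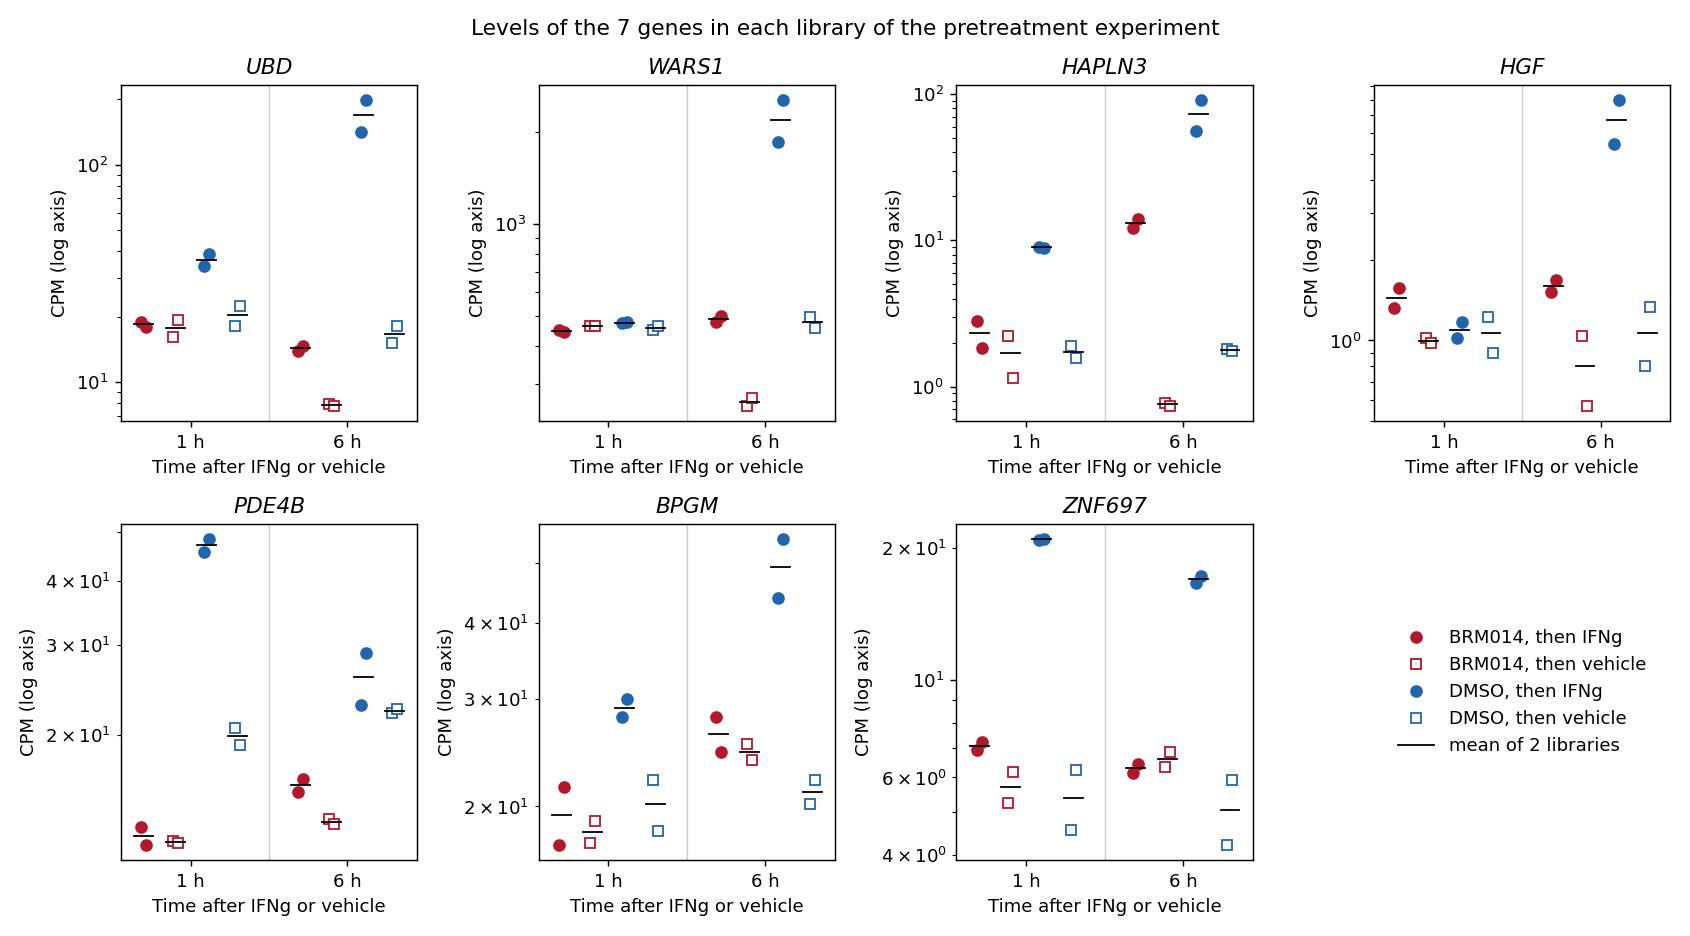
CPM of the 7 genes (log axis) in each library at 1 h and 6 h after IFNg (filled circles) or vehicle (open squares), following BRM014 (red) or DMSO (blue); black lines are means of 2 libraries. At 6 h the BRM014-treated IFNg libraries of UBD (13.9 and 14.7 CPM) lie below the DMSO-treated vehicle libraries (15.1 and 18.1 CPM).

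**Figure D3:**
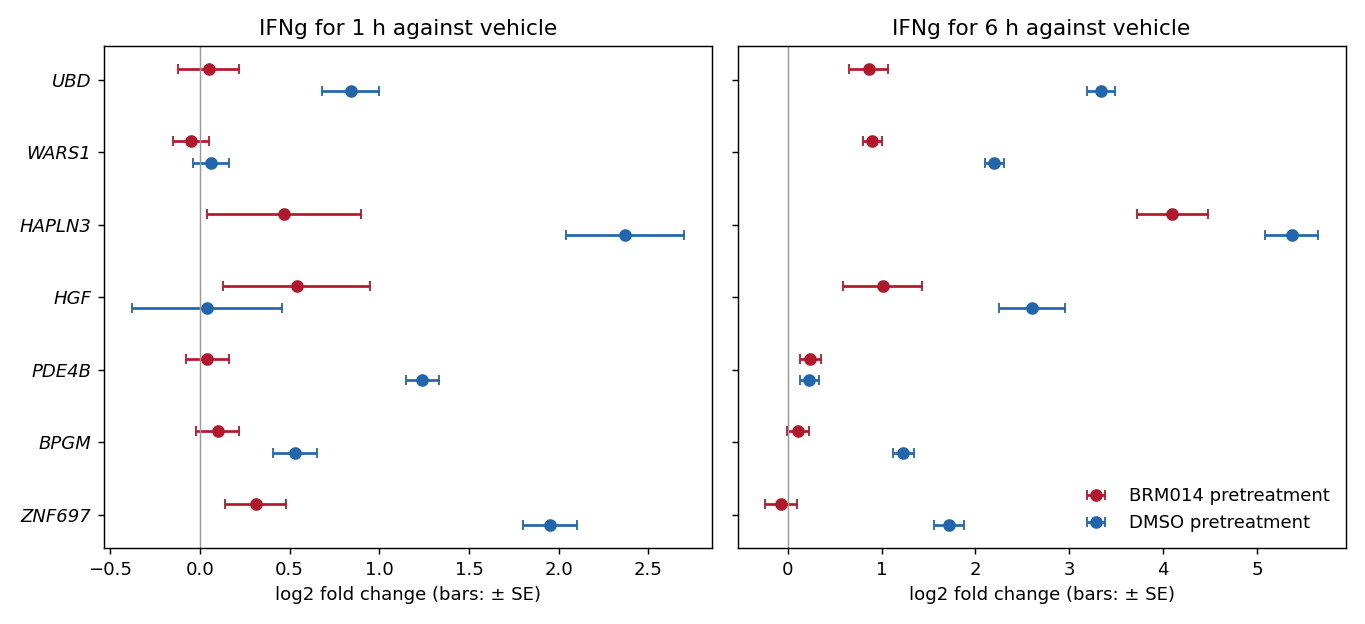
Log2 fold change of IFNg against vehicle with its SE at 1 h (left) and 6 h (right), in BRM014-pretreated (red) and DMSO-pretreated (blue) cells. PDE4B separates by pretreatment at 1 h (0.04 and 1.24) and not at 6 h (0.24 and 0.23), and HAPLN3 keeps a 6 h value of 4.10 under BRM014.

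BRM014 without a stimulus lowered part of the set. These vehicle libraries also enter the responses that chose the genes, so the tests below are not independent of that choice. After 1 h, PDE4B was the single gene of the 7 that changed, with 12.4 and 12.3 CPM in BRM014 cells against 20.7 and 19.1 CPM in DMSO cells. Its log2 fold change was -0.69 ± 0.11 (edgeR's quasi-likelihood test, Benjamini-Hochberg adjusted p = 0.000118), and 1.46% of all genes were called lower at that time. After 6 h, 3 of 7 were lower, which is 42.9%, against 20.1% of all genes. UBD fell by 1.10 ± 0.20 (adjusted p = 0.000286), WARS1 by 0.86 ± 0.10 and PDE4B by 0.72 ± 0.10 on the log2 scale in edgeR. HAPLN3, at -1.22 ± 0.53, did not pass (adjusted p = 0.0815 in edgeR), but did with DESeq2 (0.0157), with no filter (0.00178) and in a fit of the compared groups alone (0.0153). Nor did HGF at -0.48 ± 0.44, BPGM at 0.21 ± 0.12 or ZNF697 at 0.36 ± 0.17 pass, though ZNF697 was called higher without DMSO-arm vehicle replicate 2 (adjusted p = 0.0236 in edgeR). The 2 genes with no visible 6 h IFNg response under BRM014, ZNF697 and BPGM, were not called lower without the stimulus. The same BRM014-treated vehicle libraries enter both comparisons, so nothing is read from them together.

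**Figure D4:**
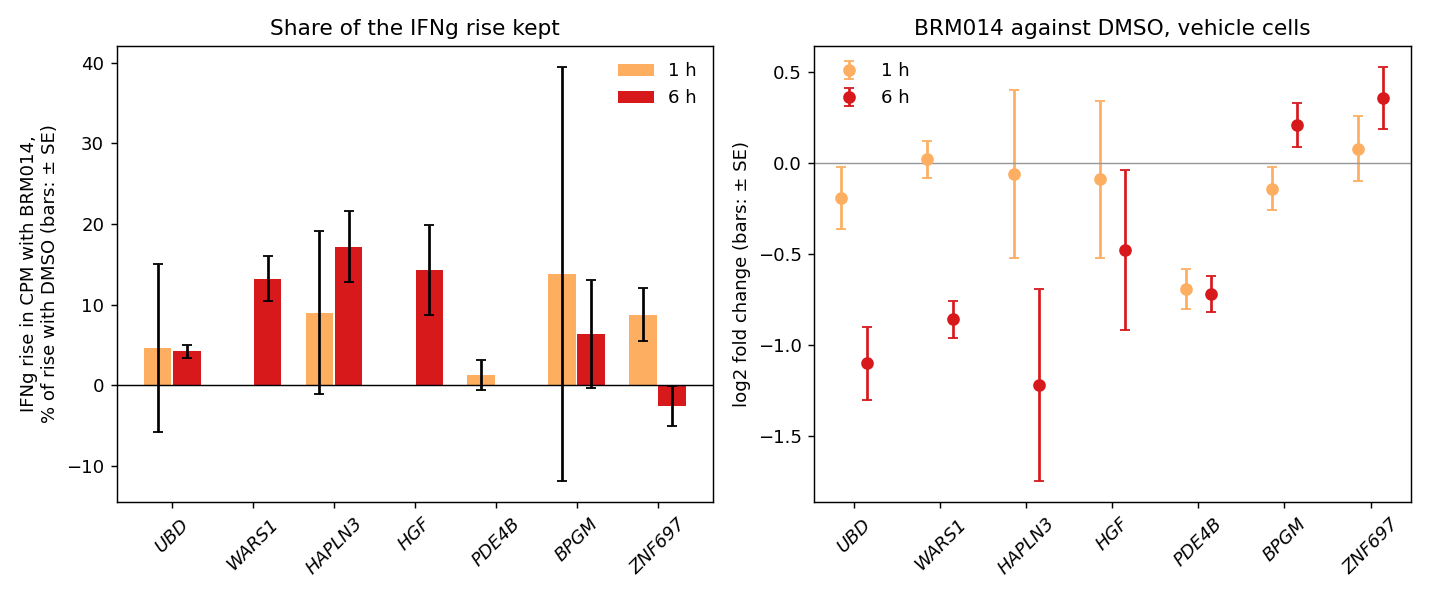
Left, rise in CPM with IFNg under BRM014 as a percentage of the rise under DMSO, with SE, at 1 h and 6 h; genes whose DMSO response was under 0.5 on the log2 scale have no bar. Right, log2 fold change of BRM014 against DMSO in vehicle cells, with SE; at 6 h UBD (-1.10), WARS1 (-0.86) and PDE4B (-0.72) passed the test.

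Other genes of the IFNg pathway set the 7 in context; these lists were drawn up with results of these data known. In the panel, 42 of 42 measured IFNg targets outside the set rose with IFNg (median log2 fold change 1.01), against 7.11% of all genes. Of 41 measured in the pretreatment experiment, 30 rose with 6 h of IFNg under BRM014 (median 0.83), against 1.5% of all genes, and 39 under DMSO (median 0.94), against 3.47%. After 1 h, 6 rose under BRM014, against 0.105% of all genes, and 9 under DMSO, against 0.435%. Their median 6 h interaction was -0.05, with 1 called lower, beside a median of -0.006 for all genes and of -1.30 for the 7, which this contrast helped to choose. SOCS1, a feedback inhibitor of JAK kinases, was the gene called lower (-1.03 ± 0.20). In vehicle cells, 35 of the 41 were lower after 6 h of BRM014 and 1 was higher (median -0.76), where 20.1% of all genes were lower. IRF1 rose by 3.33 at 1 h under DMSO and differed between the arms by 0.13. SOCS3, another feedback inhibitor, belongs to a separate list of 16 IFNg signalling genes. It rose by 3.05 under DMSO at 1 h, with an interaction of -1.50 ± 0.16 (edgeR adjusted p = 3.79e-06), where 0.0659% of all genes were called lower. Of those 16 genes, 2 were called lower in the 1 h interaction (median -0.05), and 12 rose at 6 h under BRM014 and 12 under DMSO.

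Genes that work with the products of the 7 were counted in 6 further lists, beside the 1.5% of all genes that rose under BRM014 and the 3.47% under DMSO. Of 10 genes of FAT10 conjugation and the immunoproteasome, 5 rose with IFNg at 6 h under BRM014 and 6 under DMSO, among them NUB1, which binds FAT10 (0.69 and 0.59). PSMB8, PSMB9, PSMB10, PSME1 and PSME2 of this list are also among the IFNg targets counted above. Apart from these, NUB1 was the only gene of the list that rose in either arm. Of 19 other cytosolic aminoacyl-tRNA synthetases, none rose under BRM014 by edgeR and 2 rose under DMSO, with a median of 0.06. Among 13 measured cAMP phosphodiesterase and kinase A genes, 1 rose under BRM014, and under DMSO 1 rose and 1 fell. None of 7 measured genes of HGF reception and activation rose in either arm, and 1 fell under DMSO. Of 14 glycolysis genes, 1 rose under BRM014 and 2 under DMSO. None of 5 measured hyaluronan matrix genes was called in either arm. No gene of these 6 lists was called in the 6 h interaction by edgeR, where 0.151% of all genes were lower and 0.0461% higher.

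Dex, a glucocorticoid, lowered PDE4B and WARS1. The Dex comparisons used the same vehicle libraries as the IFNg responses that chose the genes, so they are not independent of that choice. In the panel, PDE4B held 13.5 and 15.4 CPM with Dex, against 21.9 to 24.7 CPM with vehicle, and fell by 0.65 ± 0.09 on the log2 scale (edgeR adjusted p = 2.49e-07). WARS1 held 342 and 362 CPM with Dex, against 436 to 469 CPM with vehicle, and fell by 0.36 ± 0.04. UBD fell by 0.31 ± 0.09 (edgeR adjusted p = 0.00594), but not against the PBS libraries alone (adjusted p = 0.128), without Dex replicate 1 (0.143) or without PBS replicate 2 (0.0698). These 3 of 7 compare with 12.7% of all genes lower. Of the 42 measured IFNg targets outside the set, 26 were also lower with panel Dex and 5 were higher (median -0.33). At 6 h in the DMSO arm, PDE4B held 13.4 and 12.4 CPM with Dex against 22.1 and 22.5 CPM with vehicle, and fell by 0.78 ± 0.11. WARS1 fell by 0.41 ± 0.10 there (edgeR adjusted p = 0.00792), and 7.53% of all genes were lower. In that comparison 20 of 41 measured IFNg targets outside the set were lower and 3 were higher (median -0.36). The WARS1 call was lost without Dex replicate 1 (adjusted p = 0.0506) or vehicle replicate 1 (adjusted p = 0.0846). After 1 h of Dex none of the 7 was called by edgeR (none had an unadjusted p under 0.05), where 0.606% of genes were called.

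Under BRM014, PDE4B was close to vehicle after 6 h of Dex, with 12.4 and 12.7 CPM in Dex cells against 13.7 and 13.4 CPM in vehicle cells (-0.11 ± 0.11). None of the 7 was called in that arm by edgeR (none had an unadjusted p under 0.05), although WARS1 was with no filter or in a fit of the compared groups alone (adjusted p = 0.0303 and 0.0099), where 7.77% of genes were called in either direction. Comparing the arms again used the vehicle libraries of the 6 h IFNg responses. The difference between the arms was 0.68 ± 0.16 for PDE4B (edgeR adjusted p = 0.00963), the 1 call among the 7, where 1.04% of genes were called higher. It was not called by DESeq2 (adjusted p = 0.0673), without DMSO-arm Dex replicate 2 (0.0652) or without BRM014-arm vehicle replicate 2 (0.0554).

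The other stimuli gave no call among the 7. None was called by edgeR with IL2, TNF or LPS, where 0.203%, 0.019% and 0% of all genes were called. An unadjusted p under 0.05 was found for 2, 2 and 1 of the 7, and for 902, 792 and 776 of all 15775 genes. PDE4B was among these with each stimulus (edgeR unadjusted p = 0.0399, 0.0374 and 0.0388), but these contrasts share the same vehicle libraries and are not independent. It had 25.2 and 26.2 CPM with IL2, 23.6 and 27.8 CPM with TNF and 25.7 and 25.8 CPM with LPS, against 21.9 to 24.7 CPM with vehicle. In the single Dox library UBD stood at 16.2 CPM, WARS1 at 421 CPM and ZNF697 at 4.40 CPM, each a little under its vehicle range, and PDE4B at 25.9 CPM, a little over it; there is no replicate check.

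HepG2 cells, which saw no IFNg, expressed part of the set. UBD had 0.870 and 0.314 CPM after 24 h of BRM014, against 30.7 and 28.9 CPM with DMSO, resting on 18 and 1 counts with BRM014 and 287 and 473 with DMSO. It fell by 5.22 ± 0.25 on the log2 scale (edgeR adjusted p = 5.15e-11), and the value was -6.51 without BRM014 replicate 1, which leaves the shallowest library alone. BPGM went the other way, with 18.8 and 17.9 CPM with BRM014 and 12.3 and 10.1 CPM with DMSO, and rose by 0.75 ± 0.17 (edgeR adjusted p = 0.00208). ZNF697, at -0.37 ± 0.15, and WARS1, at 0.17 ± 0.11, did not pass; ZNF697 did with crossed replicate numbers as a block (-0.40, edgeR adjusted p = 0.0149), an alternative chosen after seeing the data. Of all genes, 19.3% were higher and 22.8% lower. HAPLN3 was at 0.428 CPM or less and was not tested. HGF and PDE4B were listed at 0 counts in all 4 libraries, which allows up to 0.98 CPM in the shallowest one, counting error only.

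Across the means of the 20 GM12878 groups, on the log2(CPM + 1) scale, the 7 did not follow a single profile. UBD and WARS1 were most alike (Pearson r = 0.975), and BPGM and PDE4B least (0.469); these groups share controls and the IFNg groups dominate, so the values are descriptive. Among 10438 other genes averaging at least 5 CPM, the most like UBD was CXCL9, a chemokine (0.981), the most like WARS1 was PARP9 (0.982) and the most like HAPLN3 was GBP5, a guanylate-binding protein (0.962). For HGF it was XRN1, an RNA exonuclease (0.954), for PDE4B the chemokine receptor gene CXCR5 (0.926), for BPGM RNF24 (0.904) and for ZNF697 ZNF267 (0.847). CXCL9 had a 6 h IFNg response of 0.11 ± 0.81 (SE) under BRM014 and 4.11 ± 0.46 under DMSO. GBP5 had 2.76 ± 0.4 under BRM014 and 4.16 ± 0.26 under DMSO. Neither difference between the arms was called (edgeR adjusted p = 0.202 for CXCL9 and 0.537 for GBP5).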

How the data were processed

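Gene tables for each library were deposited as RSEM expected counts and TPM; STAR, RSEM and hg38 are named in the submitters' processing notes, per the labels a stranded, poly(A)-selecting, paired-end kit was used, and versions, annotation and strand setting are not given in the sources used here. The authors' deposited expected counts (2.51 to 4.8% of values not whole) were rounded; the deposited TPM values, which are per length, were used only to compare levels between genes. The 746 IDs that are not Ensembl genes held 0 counts and were left out. CPM used TMM library sizes. The panel, the pretreatment experiment and HepG2 were fitted separately in edgeR 4.0.16 (R 4.3.3; filterByExpr, robust quasi-likelihood test, 2-sided, Benjamini-Hochberg adjustment over the 15775, 15183 and 13349 genes tested, threshold 0.05), with no block. The edgeR test was tried on simulated data for panel Dex, BRM014 in vehicle cells at 6 h, the 6 h Dex interaction and HepG2. The other comparisons were not simulated. All 7 genes passed the filter in GM12878 and 4 in HepG2. Replicates differed beyond sampling noise (chi-square per degree of freedom 2.52 to 7.35), so none was a duplicate. DESeq2 1.42.0, other filters and scalings, other controls and leaving out libraries were alternatives.

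The genes and the 8 gene lists were chosen with earlier results of these data known. Tests had been planned for the 1 h IFNg contrasts, but PDE4B and ZNF697 stand out there and not, or not only, at 6 h, so the 1 h values also chose the genes and are given without a test. The named genes are all 7, the genes most alike to each in profile (log2(CPM + 1), mean of at least 5 CPM), and up to 4 per list by 1 h adjusted p; NUB1 was named after its values were seen. A call in the other direction among the IFNg targets in the 6 h interaction is not reported here.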

Additional observations from a re-analysis of the deposited data

Results flagged for a closer look

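PDE4B was flagged because its 6 h Dex response differed between the pretreatments in a test of that difference. It was -0.11 ± 0.11 under BRM014 and -0.78 ± 0.11 under DMSO on the log2 scale, a difference of 0.68 ± 0.16 (SE; edgeR adjusted p = 0.00963). Its vehicle level was already lower under BRM014, at 13.7 and 13.4 CPM, against 22.1 and 22.5 CPM under DMSO. The part of that lower level in the difference was not tested. These vehicle libraries also entered the IFNg responses that chose the genes.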

How the results depend on the processing

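No value past the threshold changed sign under the alternatives run. Values near 0 did when a library was left out: the 1 h shares of the rise kept by UBD (-5.1 to 14.4%), PDE4B (-0.573 to 3.12%) and BPGM (-10.3 to 37.9%), the 1 h responses of UBD, PDE4B and BPGM under BRM014 and of HGF under DMSO, and the 6 h interaction of PDE4B (-0.14 to 0.2). Summaries over the 7 genes were compared under alternatives that keep all libraries. Of these, 111 stayed within the median SE over the genes or, for counts, within 1.5 times, and 3 moved further. Among the 111 were 4 calls in place of 3 for BRM014 in vehicle cells at 6 h (HAPLN3). Also among them were 2 in place of 3 for panel Dex against PBS alone and 3 in place of 2 for HepG2 with the crossed block. With no filter, and in fits of the compared groups alone, 1 gene (WARS1) was called with Dex at 6 h under BRM014 in place of 0, and DESeq2 called 0 in the 6 h Dex interaction in place of 1. Leaving out a library gave a median log2 IFNg response at 6 h of 0.63 to 0.9 under BRM014 and 1.96 to 2.41 under DMSO, a 6 h interaction of -1.58 to -1.05, and a 6 h difference between BRM014 and DMSO in IFNg cells of -2.3 to -1.76. The 1 h response under DMSO was 0.7 to 1.0, Dex calls at 6 h under DMSO numbered 1 to 2, and calls in the Dex interaction 0 to 1.

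Same-numbered libraries did not pair: their correlations ran from -0.09 to 0.3 in the panel, with 4 of 21 over 0.1, and from -0.28 to 0.33 in the pretreatment experiment, with 18 of 66. With a replicate block the median 6 h interaction was -1.30, and calls over all genes numbered 5 in place of 3 for TNF and 16 in place of 0 for LPS; no call among the 7 changed. In HepG2, where the correlation was -0.27, a crossed replicate block chosen after seeing the data called 6859 genes, the numbered block 4749 and no block 5617.

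Calls over all genes moved by over 1.5 times elsewhere. DESeq2 gave 1226 in place of 1872 for panel IFNg, 2649 in place of 4052 for panel Dex, 48 in place of 30 for the 6 h IFNg interaction and 133 in place of 217 for vehicle over time. Fitting only the compared groups gave 470 in place of 269 (IFNg 6 h, BRM014), 349 in place of 1005 (IFNg 6 h, DMSO), 11 in place of 30 and 28 in place of 10 (6 h and 1 h IFNg interactions), 128 in place of 78 (IFNg 1 h, DMSO), 163 in place of 92 (Dex 1 h), 75 in place of 217 (vehicle) and 2 in place of 0 (LPS). No filter gave 84, 31, 27, 362, 73, 22 and 20 for the 6 h and 1 h IFNg interactions, IFNg 1 h under BRM014, vehicle, IL2, TNF and LPS. DMSO alone as control gave 98, 38 and 35 for IL2, TNF and LPS, and PBS alone 10 and 0 for IL2 and TNF. The causes were not tested.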
